A study of Rattus norvegicus with 12 samples.

Results

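Male rats of the Flinders Sensitive Line (FSL) that had received L-acetyl-carnitine (LAC) and were labelled responders were compared with vehicle-treated males of the Flinders Resistant Line (FRL), to ask how close the ventral dentate gyrus of treated responders lies to that of the resistant line. The libraries were chosen by their titles: 3 of responders and 3 of FRL vehicle, which makes 6 of the 12 libraries in the series. Responders were FSL males whose drinking water held LAC (0.3% w/v) over 7 days, a dose near 210 mg/kg per day, and FRL males had tap water. The other 6 libraries, 3 of FSL vehicle and 3 of FSL given the same LAC and labelled non-responders, entered the fit and are quoted only beside the comparison. All animals were male and of Sprague-Dawley descent, per the labels. The sources used here do not give their ages, the number of animals behind a library or the criterion that made an animal a responder. Responders and FRL vehicle differ in line, in treatment and in having been selected by response, and these cannot be told apart in this comparison. Libraries within a group are biological replicates, per the labels.

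FSL rats descend from Sprague-Dawley stock bred for high sensitivity to a cholinesterase inhibitor and are widely used as a model of depression, with FRL as their resistant counterpart. The ventral dentate gyrus, the granule cell layer region at the emotional pole of the hippocampus, receives cortical input and passes it to CA3 through the mossy fibres. LAC is an acetylated form of carnitine, the carrier that takes fatty acids into mitochondria, and it can donate acetyl groups.

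Counts assigned to genes were 8.12, 8.14 and 7.55 M (M for mega) in responders 1 to 3 and 7.86, 7.69 and 5.91 M in FRL vehicle 1 to 3. Levels below are counts per M counts (CPM), and a count of 3 corresponds to 0.368 to 0.511 CPM in the 12 libraries, a floor that covers counting error only. In each group 1 library stood apart in tissue makeup. Prox1, the transcription factor that defines dentate granule neurons, was at 9.19 CPM in responder 1 and 10.4 CPM in FRL vehicle 2, against 74.8 to 118 CPM in the other 4 libraries. Responder 1 also held 156 CPM of Tcf7l2 and 274 CPM of Slc17a6, both high in thalamus, where the other 5 libraries held 6.67 to 10.1 and 34.7 to 66.3 CPM. The mean of the whole thalamus and midbrain list was 3.91 log2 CPM in responder 1 and 2.77 to 3.15 in FRL vehicle. Not all members went this way: Prkcd, of the same list, was at 18.0 CPM in responder 1 and 22.9 to 29.6 CPM in FRL vehicle. The main counts, and the sign counts of lists that are described by them, are given with and without these 2 libraries. In bulk tissue, fewer cells of a type and less RNA per cell cannot be told apart.

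Responders and FRL vehicle differed little over the measured genes. The distance between a pair of libraries was taken as the median absolute difference in log2 CPM over 11750 tested genes. For the 9 pairs of 1 FRL library and 1 responder library it was lowest at 0.117, had a median of 0.169 and was highest at 0.22. The 3 pairs within FRL vehicle lay at 0.159 to 0.174 and the 3 pairs within responders at 0.135 to 0.183. Libraries of the 2 groups were thus about as far from each other as from their own replicates. The distance of FRL vehicle to non-responders had a median of 0.17 and ran from 0.123 to 0.194. That to FSL vehicle had a median of 0.207 and ran from 0.154 to 0.303. Its 3 largest values, 0.248 to 0.303, were the pairs with FSL vehicle 3. The pairs with FSL vehicle 1 and 2 ran from 0.154 to 0.238. The 3 pairs within FSL vehicle lay at 0.212 to 0.294, with a median of 0.236. Responders lay at a median of 0.167 from non-responders and 0.184 from FSL vehicle, so they were about as close to non-responders as to FRL vehicle. The 3 sets of pairs with FRL vehicle share its libraries, and no test was made between any of the sets. A list of meningeal and fibroblast genes had a mean of 3.62 to 6.80 log2 CPM in FSL vehicle, 2.62 to 4.05 in responders and 3.03 to 4.25 in FRL vehicle. A list of choroid plexus genes had a mean of 5.68 in FSL vehicle 1 and 6.25 in non-responder 1. It stood at 0.893 to 1.71 in responders and 0.997 to 1.49 in FRL vehicle. The part of either list in these distances was not tested.

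**Figure D1:**
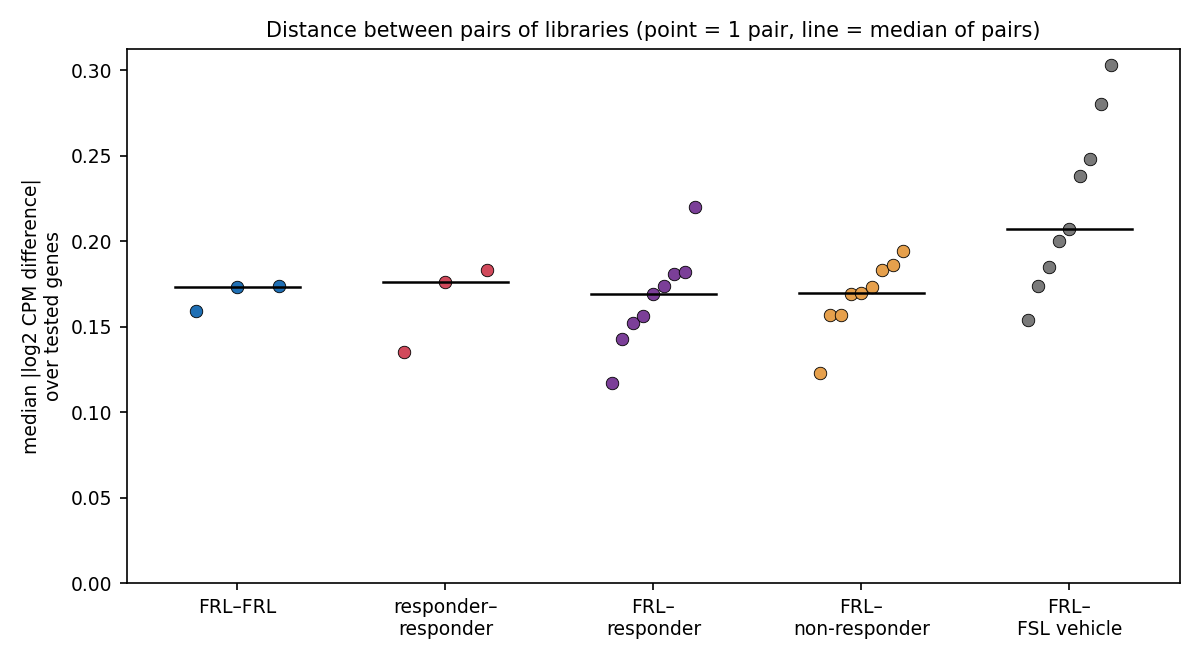
Distance between pairs of libraries as the median absolute difference in log2 CPM over tested genes, with 1 point per pair and a line at the median of each set. The 9 FRL and responder pairs, at 0.117 to 0.22, cover the range of the pairs within each group.

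The same closeness shows in the fitted fold changes. Of 11750 genes, 9809 (83.5%) had a 95% interval of the log2 fold change, responders minus FRL vehicle, that lay wholly between -1 and 1, so that a difference of that size is outside their interval. Estimates beyond -1 or 1 were found for 147 genes (1.25%). Without the 2 libraries low in Prox1 these counts were 9262 and 237 of 11865 genes. The median absolute log2 fold change was 0.0978, below the median standard error (SE) of 0.148, and the median over all genes was 0.00. For FSL vehicle minus FRL vehicle, 80.5% of genes had such an interval, 5.66% had an estimate beyond -1 or 1, and the median absolute value was 0.143. FSL vehicle 3, the library farthest from FRL vehicle, is included there, and no fit was made without it. For non-responders the figures were 82.6%, 2.22% and 0.108. An unadjusted p under 0.05 was reached by 421 genes (3.58%), where 588 would reach it if no gene differed. The responder libraries lay wholly above the FRL libraries for 640 genes (5.45%) and wholly below for 571 (4.86%), in all 10.3%.

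At an adjusted p under 0.05 by edgeR's quasi-likelihood test, 10 genes (0.0851%) differed: 5 were higher (0.0426%) and 5 lower (0.0426%) in responders than in FRL vehicle. Those lower were Car3, Rnase4, Fcrl2, Ephx2 and Gstm4, by 1.68-fold to 18.2-fold. Those higher were Ghdc, Cmc1, Trim45, Dcps and Cnot8, by 1.38-fold to 3.71-fold. The lower set holds 2 enzymes that process reactive or foreign compounds and a secreted ribonuclease, and the higher set holds 2 enzymes of mRNA turnover.

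Car3 encodes carbonic anhydrase 3, a cytosolic enzyme best known from muscle and fat. Its level was 1.59, 0.867 and 0.945 CPM in responders 1 to 3 and 24.1, 14.7 and 23.3 CPM in FRL vehicle. The responder values rest on 13, 7 and 7 counts. Every responder library lay far below every FRL library, at a mean of 1.14 ± 0.398 against 20.7 ± 5.23 CPM (SD, n = 3 each). The log2 fold change was -4.16 ± 0.39 (SE), an 18.2-fold lower level (edgeR adjusted p = 0.00347). FSL vehicle held 0.812, 0.258 and 0.840 CPM and non-responders 0.396, 0.659 and 1.13 CPM.

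Rnase4 encodes a secreted ribonuclease of the RNase A family. It stood at 13.8, 8.67 and 6.07 CPM in responders and at 63.2, 59.9 and 72.6 CPM in FRL vehicle. The groups did not overlap, and the log2 fold change of -2.77 ± 0.30 corresponds to a 6.84-fold lower level (edgeR adjusted p = 0.00820). FSL vehicle held 6.19 to 11.2 CPM and non-responders 7.65 to 13.6 CPM, so the resistant line stood apart from all 9 libraries of the sensitive line. In the reference, where 10 of the 20 leading genes overlap another gene, Rnase4 overlaps Ang, another ribonuclease gene of the same family that shares its promoter region. Ang had 2, 1 and 1 counts in responders and 3, 3 and 9 in FRL vehicle, too few for it to be tested.

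Promoter windows are shown for Rnase4 and Ghdc, the genes of smallest p in each direction for which the RefSeq table held a window. Car3 had no entry. The windows hold the bases before the gene start, 5′ to 3′ on the gene's strand, from RefSeq on GRCr8, and that of Rnase4 stops at the start of Ang. Rnase4 lies on the plus strand at chr15:26786037-26786232 and Ghdc on the minus strand at chr10:86198142-86198391. Capitals mark the CCAAT box (CCAAT) and the GC box (GGGCGG), searched on both strands.
Rnase4: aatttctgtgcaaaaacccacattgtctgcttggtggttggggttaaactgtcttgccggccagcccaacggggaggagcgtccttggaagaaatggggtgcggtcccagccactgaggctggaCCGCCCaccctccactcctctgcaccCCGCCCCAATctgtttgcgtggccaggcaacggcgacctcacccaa
Ghdc: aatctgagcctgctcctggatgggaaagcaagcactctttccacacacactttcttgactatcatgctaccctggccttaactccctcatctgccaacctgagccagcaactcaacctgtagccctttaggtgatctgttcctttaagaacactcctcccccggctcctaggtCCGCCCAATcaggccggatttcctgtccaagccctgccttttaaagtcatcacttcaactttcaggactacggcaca

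In both windows a CCAAT box overlaps a GC box read on the other strand. Rnase4 holds 2 GC boxes and 1 CCAAT box over 196 bases, and Ghdc 1 of each over 250 bases. Neither holds the TATA box letters TATAAA. Over 33469 promoter windows of 250 bases, 34.0% held CCAAT, 30.5% GGGCGG and 12.9% TATAAA. Among the 20 genes of smallest p, 14 had a window, and of these 6 held CCAAT, 6 GGGCGG and 2 TATAAA. These matches describe letters and show no binding.

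Fcrl2, an Fc receptor-like gene of immune cells, stood at 0.735, 0.991 and 1.89 CPM in responders and at 20.1, 12.7 and 10.2 CPM in FRL vehicle. The lowest FRL library lay far above the highest responder library. Its log2 fold change was -3.57 ± 0.52, an 11.9-fold lower level (edgeR adjusted p = 0.0300). FSL vehicle held 0.645 to 3.22 CPM and non-responders 1.98 to 2.11 CPM.

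Ephx2 encodes soluble epoxide hydrolase, which turns epoxides of fatty acids into diols. Responders held 2.70, 1.12 and 1.08 CPM and FRL vehicle 9.91, 9.60 and 6.30 CPM. The groups did not overlap at a 5.28-fold lower level (log2 fold change -2.38 ± 0.37; edgeR adjusted p = 0.0453). Gstm4, a mu-class glutathione transferase that couples glutathione to electrophiles, showed a smaller and tighter difference, with 17.2, 15.4 and 17.5 CPM in responders and 28.3, 26.9 and 28.8 CPM in FRL vehicle. Its log2 fold change was -0.75 ± 0.10 (edgeR adjusted p = 0.0279). Reads that aligned to several places were not counted, so the levels of Gstm4, Rnase4 and Fcrl2, which have close relatives, are uncertain.

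Ghdc, which encodes a protein with a GH3 domain, had the smallest p of the genes that were higher. Responders held 8.09, 7.06 and 7.02 CPM and FRL vehicle 2.44, 2.0 and 1.53 CPM. The lowest responder library lay above the highest FRL library by more than the spread within either group. The log2 fold change was 1.87 ± 0.21, or 3.71-fold higher (edgeR adjusted p = 0.00820), and FSL vehicle and non-responders held 6.58 to 8.60 and 8.18 to 9.75 CPM. Cmc1, a mitochondrial protein that acts in the assembly of cytochrome c oxidase, stood at 10.2, 8.55 and 9.31 CPM against 3.22, 2.13 and 3.41 CPM. It was 3.20-fold higher (log2 fold change 1.68 ± 0.23; edgeR adjusted p = 0.0279). Trim45, a member of the tripartite-motif family of ubiquitin ligases, stood at 11.9, 9.29 and 8.64 CPM against 2.83, 2.53 and 4.43 CPM. It was 3.04-fold higher (log2 fold change 1.62 ± 0.22; edgeR adjusted p = 0.0279).

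The other 2 genes that were higher act on mRNA ends. Cnot8, a deadenylase subunit of the CCR4-NOT complex that shortens poly(A) tails, stood at 118, 117 and 117 CPM in responders and 86.3, 83.9 and 84.0 CPM in FRL vehicle. The difference was small in size, 1.38-fold, and the libraries within each group hardly varied (log2 fold change 0.47 ± 0.07; edgeR adjusted p = 0.0300). Dcps, which degrades the cap left after mRNA decay, stood at 26.1, 27.6 and 31.4 CPM against 17.2, 16.4 and 18.1 CPM (log2 fold change 0.72 ± 0.10; edgeR adjusted p = 0.0300). FSL vehicle held 104 to 119 CPM of Cnot8 and 23.1 to 26.5 CPM of Dcps.

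**Figure D2:**
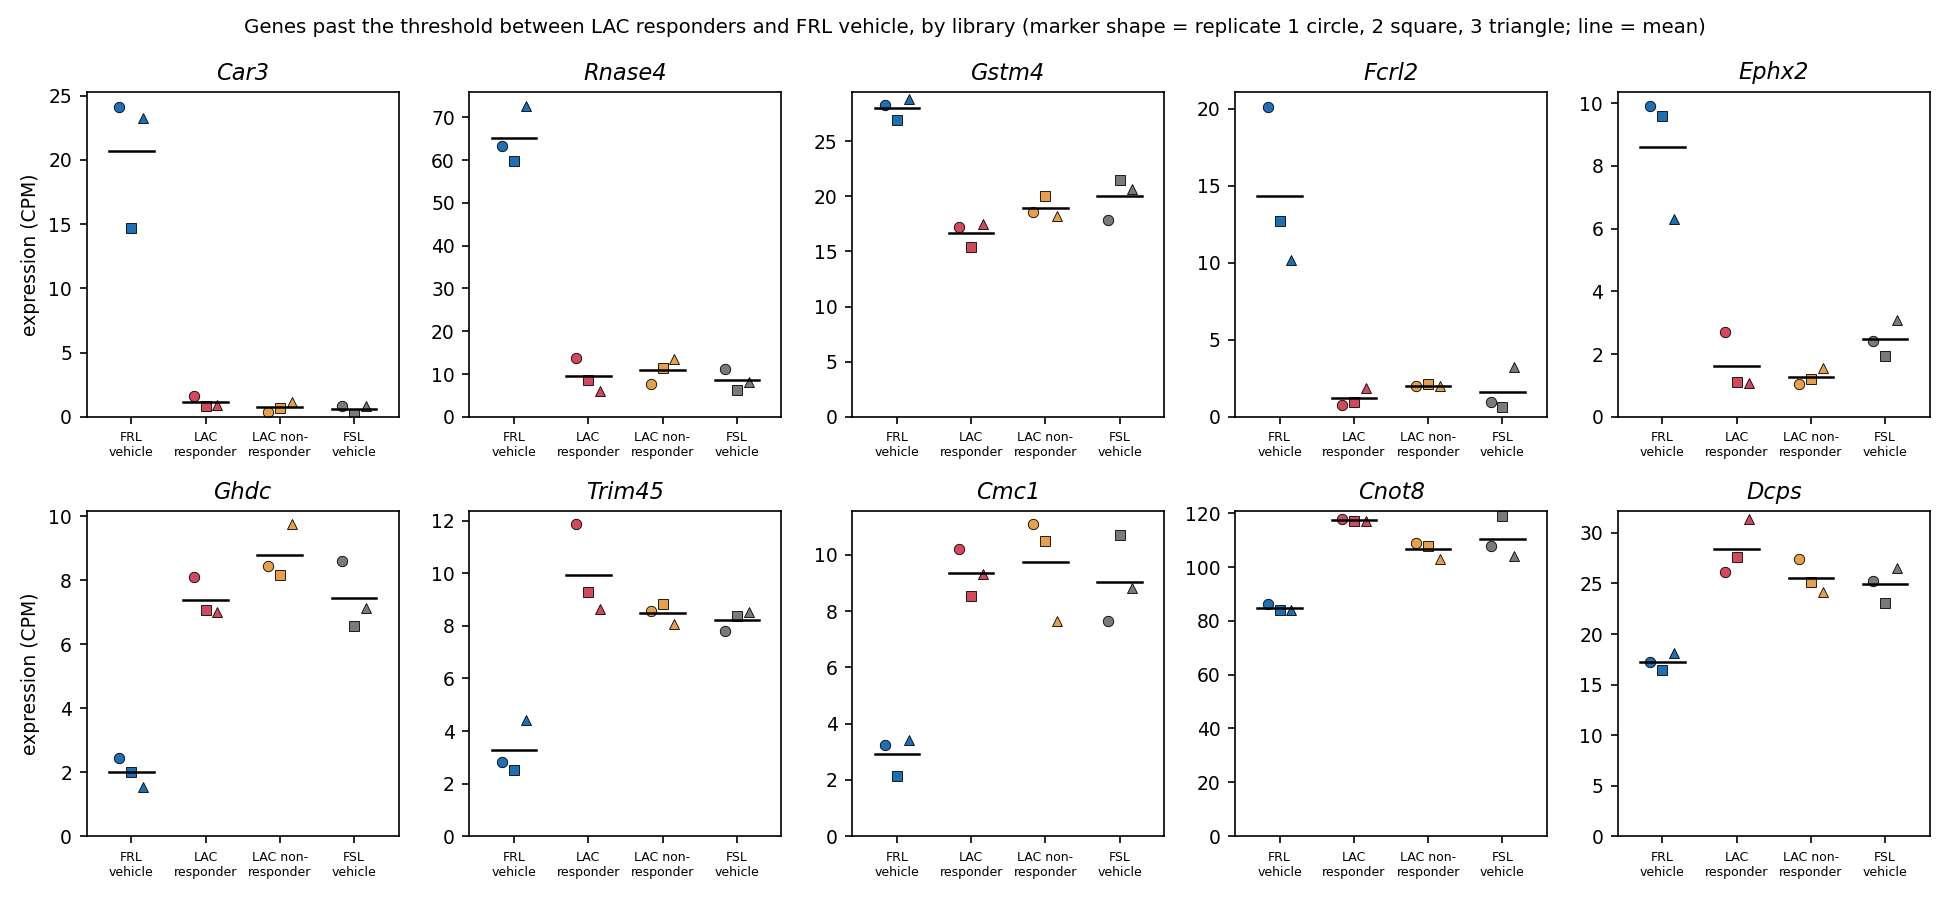
Levels in CPM of the 10 genes that passed, with 1 point per library, marker shape by replicate number and a line at the mean of each group of 3. Responders and FRL vehicle do not overlap for any of the 10, and the FSL vehicle and non-responder points lie on the same side of FRL vehicle as the responder points. For Gstm4 the responder points, at 15.4 to 17.5, are below those of both other groups.

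For each of these 10 genes all 9 libraries of the sensitive line, treated or not, lay on 1 side of the 3 FRL libraries. This is a description: the 10 were chosen for their difference between responders and the same FRL libraries. That choice puts responders on 1 side and favours it for the other FSL libraries. The share of all genes with this pattern was not taken. Set directly against FSL vehicle, responders differed in none of the 10 at an adjusted p under 0.05. There the edgeR adjusted p was 0.311 or more, the absolute log2 fold changes ran from 0.01 to 0.85, and 1 gene, Gstm4, had an unadjusted p under 0.05. Its responder minus FSL vehicle value was -0.27 with an interval from -0.49 to -0.04. For Car3 the value of 0.85 had an interval from -0.25 to 1.95. The 3 comparisons with FRL vehicle share its libraries, and their values for the 10 genes stand side by side. For FSL vehicle, where 0.0681% of all genes passed, 4 of the 10 did (Car3, Rnase4, Ghdc and Cmc1). For non-responders, where 0.0426% of all genes passed, 5 did (those and Ephx2). Nothing is read from these counts either, since the 10 were chosen on the same FRL libraries. Ephx2 was -1.79 in FSL vehicle (edgeR adjusted p = 0.127) and -2.76 in non-responders (edgeR adjusted p = 0.0333). Fcrl2 was -3.14 and -2.82 there (edgeR adjusted p = 0.0594 and 0.114).

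The count of 10 rests on all libraries. It was 4 without responder 1, 3 without responder 3, and 3, 2 and 5 without FRL vehicle 1, 2 and 3. Without responder 2 no gene passed by edgeR, with 498 at an unadjusted p under 0.05 and a smallest adjusted p of 0.0629, for Car3. No other tool was run on that set. With responder 1 and FRL vehicle 2 both left out, Car3 and Rnase4 passed. In a fit of the 6 compared libraries alone, 1 gene passed, Car3 (edgeR adjusted p = 0.0300). DESeq2 called 24 genes, the 10 among them, and limma-voom 10, of which 9 were shared. Over the 6 fits that left out 1 library, Car3 and Rnase4 each passed in 5, Ghdc in 4, Trim45 and Ephx2 in 1 and the other 5 in none. No direction turned in any of 18 alternative fits. The log2 fold change of Car3 ran from -4.68 to -4.01 in them, that of Ghdc from 1.73 to 2.05 and that of Cnot8 from 0.45 to 0.49. With the mean of the thalamus markers as a covariate 4 genes passed (Car3, Rnase4, Ghdc and Ephx2), and with that of the meningeal markers 10, of which 8 were shared.

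The next 10 genes by p did not pass. Mpeg1, the perforin-like protein of phagocytes, stood at 46.8, 34.2 and 41.3 CPM in responders and 24.1, 22.7 and 20.6 CPM in FRL vehicle (log2 fold change 0.86 ± 0.14; edgeR adjusted p = 0.0616). Anxa6, a calcium-dependent membrane-binding annexin, stood at 74.9, 97.2 and 108 CPM against 203, 165 and 192 CPM (-1.0 ± 0.17; edgeR adjusted p = 0.0811). Exosc8, a subunit of the RNA exosome, held 9.07, 11 and 8.77 CPM against 15.6, 16 and 16.2 CPM (-0.72 ± 0.13; edgeR adjusted p = 0.0934). In these 3 genes, as in the rest of the 10, no responder library lay among the FRL libraries, as for 10.3% of all genes. Their rank by p in the same comparison favours this, so nothing is read from it.

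Cyp2d1, a drug-metabolizing cytochrome P450, had no count in any FRL vehicle library. Responders held 1.10, 1.36 and 0.810 CPM, a mean of 1.09 CPM, which is at least 7.69-fold higher than the floor of 0.142 CPM that 3 counts over the 3 FRL libraries allow. FSL vehicle held 1.14, 1.29 and 2.24 CPM and non-responders 0.924, 1.05 and 1.84 CPM. The gene missed the threshold by edgeR (adjusted p = 0.0965), passed it by limma-voom and DESeq2, and has close relatives whose shared reads were not counted. Cym, the gene of the milk-clotting protease chymosin, had 2, 2 and 1 counts in FRL vehicle and stood at 1.35, 1.61 and 1.89 CPM in responders (edgeR adjusted p = 0.154).

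The others were Tmem144 at 1.30 ± 0.22, RGD1306001 (named Cdpf1 in RefSeq) at 0.93 ± 0.16, Egf at 1.21 ± 0.22, Lrrcc1 at -0.60 ± 0.12 and Ube3d at 1.04 ± 0.20, as log2 fold changes with SE. Lrrcc1, a centrosomal protein, held 21.1, 20.8 and 17.8 CPM in responders and 30.6, 29.6 and 30.5 CPM in FRL vehicle. Ube3d, a ubiquitin ligase, held 9.56, 10.5 and 7.29 CPM against 3.73, 4.53 and 5.11 CPM. Tmem144, a membrane protein, held 20.8, 15.9 and 15.7 CPM against 8.62, 4.53 and 8.18 CPM. Their edgeR adjusted p-values lay between 0.0811 and 0.154.

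**Figure D3:**
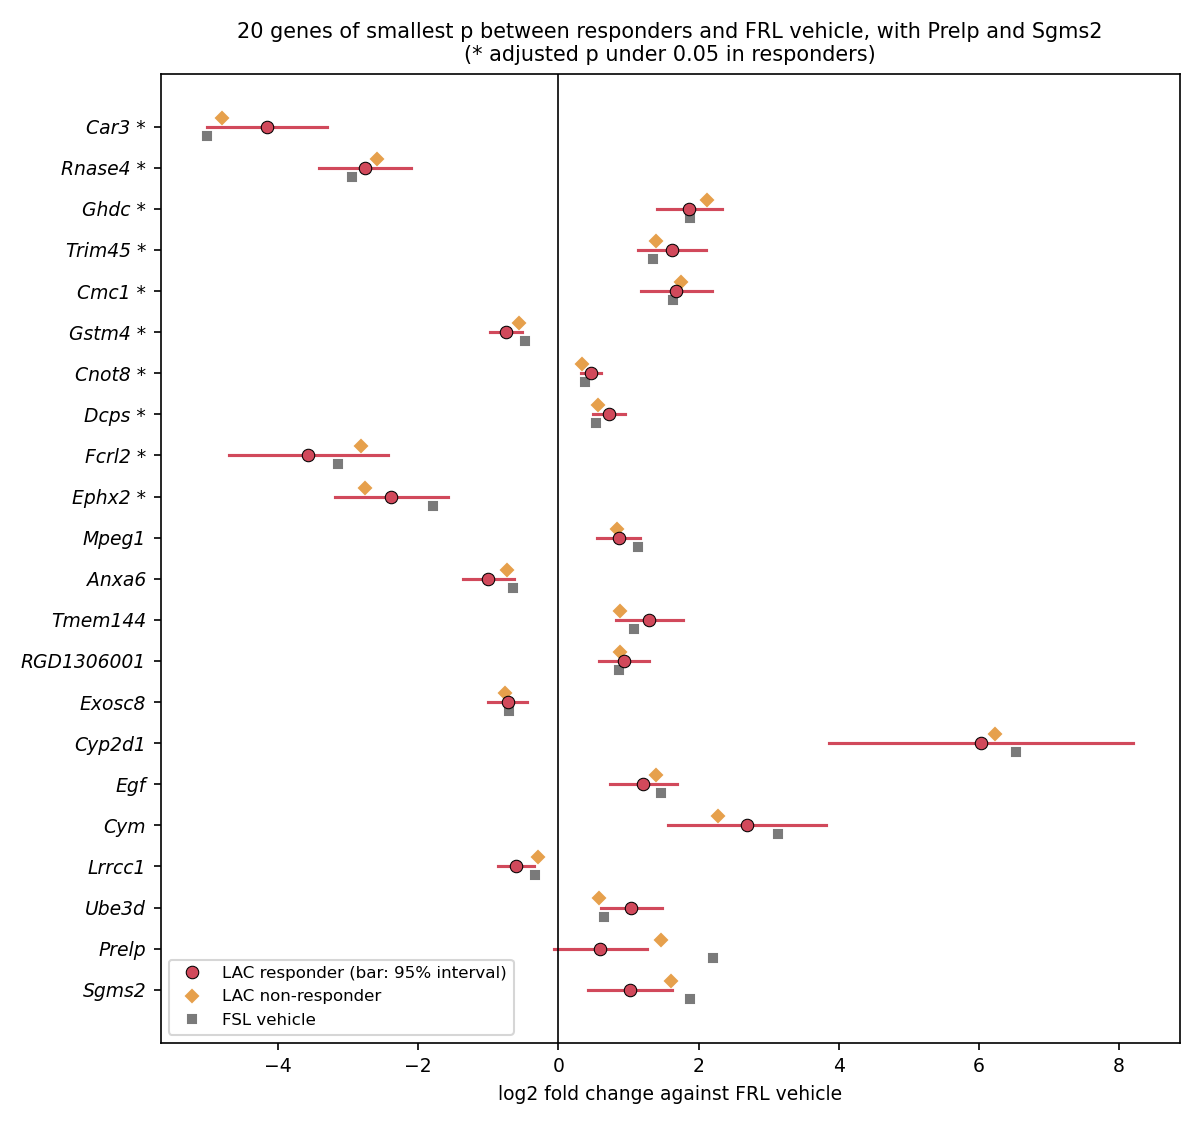
Log2 fold change against FRL vehicle of the 20 genes of smallest p, with Prelp and Sgms2, for responders (circle with 95% interval), non-responders (diamond) and FSL vehicle (square). Genes marked with an asterisk passed in responders. Car3 at -4.16 is the lowest value for responders, and the bar of Cyp2d1 is the widest because FRL vehicle had no count.

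Earlier work on these data called 8 genes between FSL vehicle and FRL vehicle: Car3, Rnase4, Ghdc, Cmc1, Mpeg1, Egf, Prelp and Sgms2. They were chosen with the same FRL and FSL vehicle libraries, so their direction against either group is a description and not independent. In responders 4 of the 8 passed, where 0.0851% of all genes did, and for all 8 the responder libraries lay outside the range of FRL vehicle, where 10.3% of all genes did. Nothing is read from these counts, since the list was chosen on the same FRL libraries. Egf, the epidermal growth factor gene, stood at 9.80, 12.5 and 12.1 CPM in responders, 4.12, 4.53 and 6.30 CPM in FRL vehicle and 12.8, 10.7 and 17.6 CPM in FSL vehicle.

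Prelp and Sgms2 lay between the lines. Prelp, a leucine-rich repeat protein of connective tissue matrix, stood at 15.8, 14.4 and 19.3 CPM in responders, 11.8, 13.3 and 7.15 CPM in FRL vehicle and 37.0, 37.2 and 75.9 CPM in FSL vehicle. Its responder minus FRL vehicle value was 0.60 ± 0.30 (edgeR adjusted p = 0.9996), with an interval from -0.06 to 1.26. Against FSL vehicle, whose high level is what placed Prelp and Sgms2 on the list, so that this contrast is a description too, it was -1.60 with an interval from -2.23 to -0.97 (edgeR unadjusted p = 0.000165, adjusted p = 0.237), so it did not pass there either. Non-responders held 29.3 to 30.7 CPM of Prelp.

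Sgms2, which makes sphingomyelin at the plasma membrane, stood at 7.96, 8.18 and 6.07 CPM in responders, 3.35, 4.80 and 2.73 CPM in FRL vehicle and 13.1, 9.29 and 17.9 CPM in FSL vehicle. It was 1.02 ± 0.27 above FRL vehicle (edgeR adjusted p = 0.696) and -0.86 from FSL vehicle (edgeR adjusted p = 0.266). Dcn, the defining fibroblast marker, was at 44.5, 94.2 and 173 CPM in FSL vehicle, 21.6, 29.4 and 24.2 CPM in responders and 39.5, 41.1 and 34.4 CPM in FRL vehicle. With the mean of the meningeal markers as a covariate, the responder minus FRL vehicle value was 0.73 for Prelp and 1.08 for Sgms2.

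Lamp5, a marker of neurogliaform interneurons and cortical neurons, stood at 51.9, 54.9 and 63.4 CPM in responders, 49.2, 77.1 and 44.8 CPM in FRL vehicle and 28.1, 31.1 and 32.5 CPM in FSL vehicle. Responders overlapped FRL vehicle (log2 fold change -0.01, interval from -0.38 to 0.36) and lay above FSL vehicle by 0.89 with an interval from 0.51 to 1.28 (edgeR adjusted p = 0.237). Non-responders held 52.2 to 54.9 CPM, within the range of FRL vehicle as well.

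Neighbours of the leading genes on the chromosomes were looked at in RefSeq order, taking 10 genes to each side. Lrrcc1 lies 4 places from Car3. Around Car3, 4 of 16 tested neighbours had an unadjusted p under 0.05: Lrrcc1, Zfp458 at 0.33, Fam173b at 0.37 and Chmp4c at 1.72 on the log2 scale. The value of Chmp4c rests on 10, 8 and 5 counts in responders and 3, 2 and 1 in FRL vehicle, near the floor. Trmu, a mitochondrial tRNA-modifying enzyme within 10 genes of RGD1306001, stood at 18.0, 18.2 and 21.1 CPM in responders and 14.2, 13.7 and 11.6 CPM in FRL vehicle. Srebf2, the transcription factor that drives cholesterol synthesis, lies near Cyp2d1 and stood at 292, 322 and 338 CPM against 399, 409 and 403 CPM. Neither passed (edgeR adjusted p = 0.363 for Trmu and 0.590 for Srebf2). Over all 20 leading genes, 21 of 260 distinct tested neighbours (8.08%) had an unadjusted p under 0.05, with the leading genes themselves left out, beside 3.58% of all genes. The difference between these shares was not tested.

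Of 10 candidate genes linked to LAC, stress or mood, none passed by edgeR, where 0.0851% of all genes did. None showed groups that did not overlap, beside 10.3% of all genes, and none had an unadjusted p under 0.05, beside 3.58%. For 8 of the 10 the interval lay wholly within -1 and 1, beside 83.5% of all genes. These counts do not set the candidates apart from other genes. Grm2, the presynaptic glutamate receptor mGlu2, stood at 42.1, 97.4 and 77.3 CPM in responders and 82.2, 99.6 and 119 CPM in FRL vehicle. Responder 1 was the low library, and the log2 fold change of -0.47 had an interval from -1.01 to 0.07. Nr3c1, the glucocorticoid receptor, stood at 218, 270 and 225 CPM against 226, 266 and 223 CPM, with an interval from -0.26 to 0.25. Nr3c2, the mineralocorticoid receptor of granule and pyramidal neurons, varied within both groups, from 99.2 to 238 CPM in responders and from 88.8 to 217 CPM in FRL vehicle.

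The carnitine enzymes among the candidates gave the narrowest intervals. Crat, which moves acetyl groups between carnitine and coenzyme A, stood at 124, 123 and 130 CPM in responders and 138, 131 and 117 CPM in FRL vehicle (interval from -0.22 to 0.16). Cpt1a, which loads fatty acids onto carnitine, stood at 56.7, 55.4 and 58.6 CPM against 63.8, 58.3 and 55.4 CPM (interval from -0.25 to 0.13). Bdnf, the neurotrophin, was at 52.8 to 69.4 CPM against 59.7 to 70.3 CPM (interval from -0.49 to 0.35). The insulin receptor Insr had an interval from -0.44 to 0.25, the stress chaperone Fkbp5 from -0.61 to 0.53 and the stress peptide Crh, at 0.772 to 2.40 CPM, from -0.99 to 0.86. Ttr, which the choroid plexus makes in bulk, had an interval from -3.94 to 5.96 and is not resolved. It was at 7.06 to 31.9 CPM in responders and 3.07 to 16.7 CPM in FRL vehicle.

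The pathway and gene group lists showed differences of small size. Over 17 such lists, without the line and candidate genes, the median log2 fold change of a list lay between -0.10 and 0.05, beside 0.00 for all genes, of which 51.1% were above 0. Members passed in 1 of the 17, the antioxidant, glutathione and xenobiotic enzymes. Over all lists and markers, 649 distinct genes were tested. Of these 6 (0.924%) passed, beside 0.0851% of all genes, but 4 of the 6 are line genes that entered for their difference from FRL. An unadjusted p under 0.05 was reached by 34 of the 649 (5.24%), and by 27 of 641 (4.21%) without the line genes, beside 3.58% of all genes. Of the 649, 61 (9.4%) had groups that did not overlap, beside 10.3% of all genes. All lists were written with earlier results of these data known, so nothing is read from these shares.

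Of 38 tested antioxidant, glutathione and xenobiotic genes, Ephx2 and Gstm4 were lower, where 0.0426% of all genes were, and none was higher past the threshold. The list was written with earlier results of these data known, so nothing is read from this count. The list median was 0.05, with 24 members above 0 (25 without the 2 libraries low in Prox1). Mgst1, a membrane-bound glutathione transferase, stood at 17.5, 11.9 and 7.29 CPM in responders and 6.56, 4.93 and 4.60 CPM in FRL vehicle (log2 fold change 1.18 ± 0.32; edgeR adjusted p = 0.696). Cyp2d1 belongs to this list as well. Its 2 genes that passed and its largest estimate thus point in opposite directions.

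Among the energy lists, no gene passed. All 44 tested genes of oxidative phosphorylation had an interval within -1 and 1, where 83.5% of all genes did. Their values ran from -0.09 to 0.24 with a median of 0.03, and 33 of the 44 were above 0 (38 without the 2 libraries low in Prox1). Ndufa10, a subunit of respiratory complex I, stood at 20.2, 21.4 and 20.7 CPM in responders and 16, 19.5 and 17.2 CPM in FRL vehicle, a difference of 0.24 with an interval from -0.15 to 0.64. All 33 genes of glycolysis and the citrate cycle had such intervals too, with a median of -0.02. Of 29 genes of carnitine and fatty acid oxidation, 28 had one, with a median of 0.00. Hadh, a dehydrogenase of beta-oxidation, stood at 29.5, 37.4 and 28.5 CPM against 23.0, 28.0 and 25.2 CPM (edgeR unadjusted p = 0.0529).

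Genes of neurotransmission gave no call. Of 31 synaptic vesicle release genes, 25 were below 0 (20 without the 2 libraries low in Prox1) and the median was -0.09. Vamp2, the vesicle SNARE, stood at 290, 325 and 293 CPM in responders and 338, 393 and 423 CPM in FRL vehicle (-0.34 ± 0.15; edgeR adjusted p = 0.9996). The median stayed below 0 in all 18 alternative fits, from -0.15 to -0.03, and was -0.03 without the 2 libraries low in Prox1. Of 30 glutamate receptor and transport genes 27 had an interval within -1 and 1, with a median of -0.03, and of 32 ion channel genes 31 did, with a median of -0.07. Of all genes, 83.5% had such an interval. Gabrd, the extrasynaptic GABA receptor subunit of granule neurons, stood at 47.4, 48.3 and 45.4 CPM against 37.1, 39.3 and 40.5 CPM (0.27 ± 0.12; edgeR adjusted p = 0.9996).

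In the monoamine and acetylcholine receptor list, 2 muscarinic receptors pointed in opposite directions. Chrm4 stood at 20.5, 23.5 and 22.7 CPM in responders and 24.8, 37.3 and 40.5 CPM in FRL vehicle (-0.62 ± 0.18; edgeR adjusted p = 0.872). Chrm2 stood at 42.1, 18.8 and 19.2 CPM against 9.65, 14.7 and 16.7 CPM (0.97 ± 0.34; edgeR adjusted p = 0.9996), with its highest value in the library high in thalamic markers. Neither passed. The median of the 26 tested members was -0.08.

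No member of the remaining lists passed. All 25 chromatin acetylation and methylation genes had an interval within -1 and 1, beside 83.5% of all genes, with a median of -0.01. Sirt2, a deacetylase abundant in oligodendrocytes, stood at 110, 133 and 145 CPM in responders and 108, 109 and 115 CPM in FRL vehicle (0.22 ± 0.10; edgeR adjusted p = 0.9996). Of 36 immediate early genes 30 were below 0, but 15 without the 2 libraries low in Prox1, and the median of -0.10 turned above 0 in 2 of 18 alternative fits. Nr4a2, an activity-induced nuclear receptor, stood at 30.3, 107 and 69.4 CPM against 91.7, 154 and 126 CPM, again lowest in responder 1. The stress hormone axis (16 tested), growth factors and neurogenesis (32), insulin and glucose signalling (28), circadian clock (15), immune and antigen presentation (30), GABA (20) and neuropeptide lists (19) had medians from -0.09 to 0.03.

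**Figure D4:**
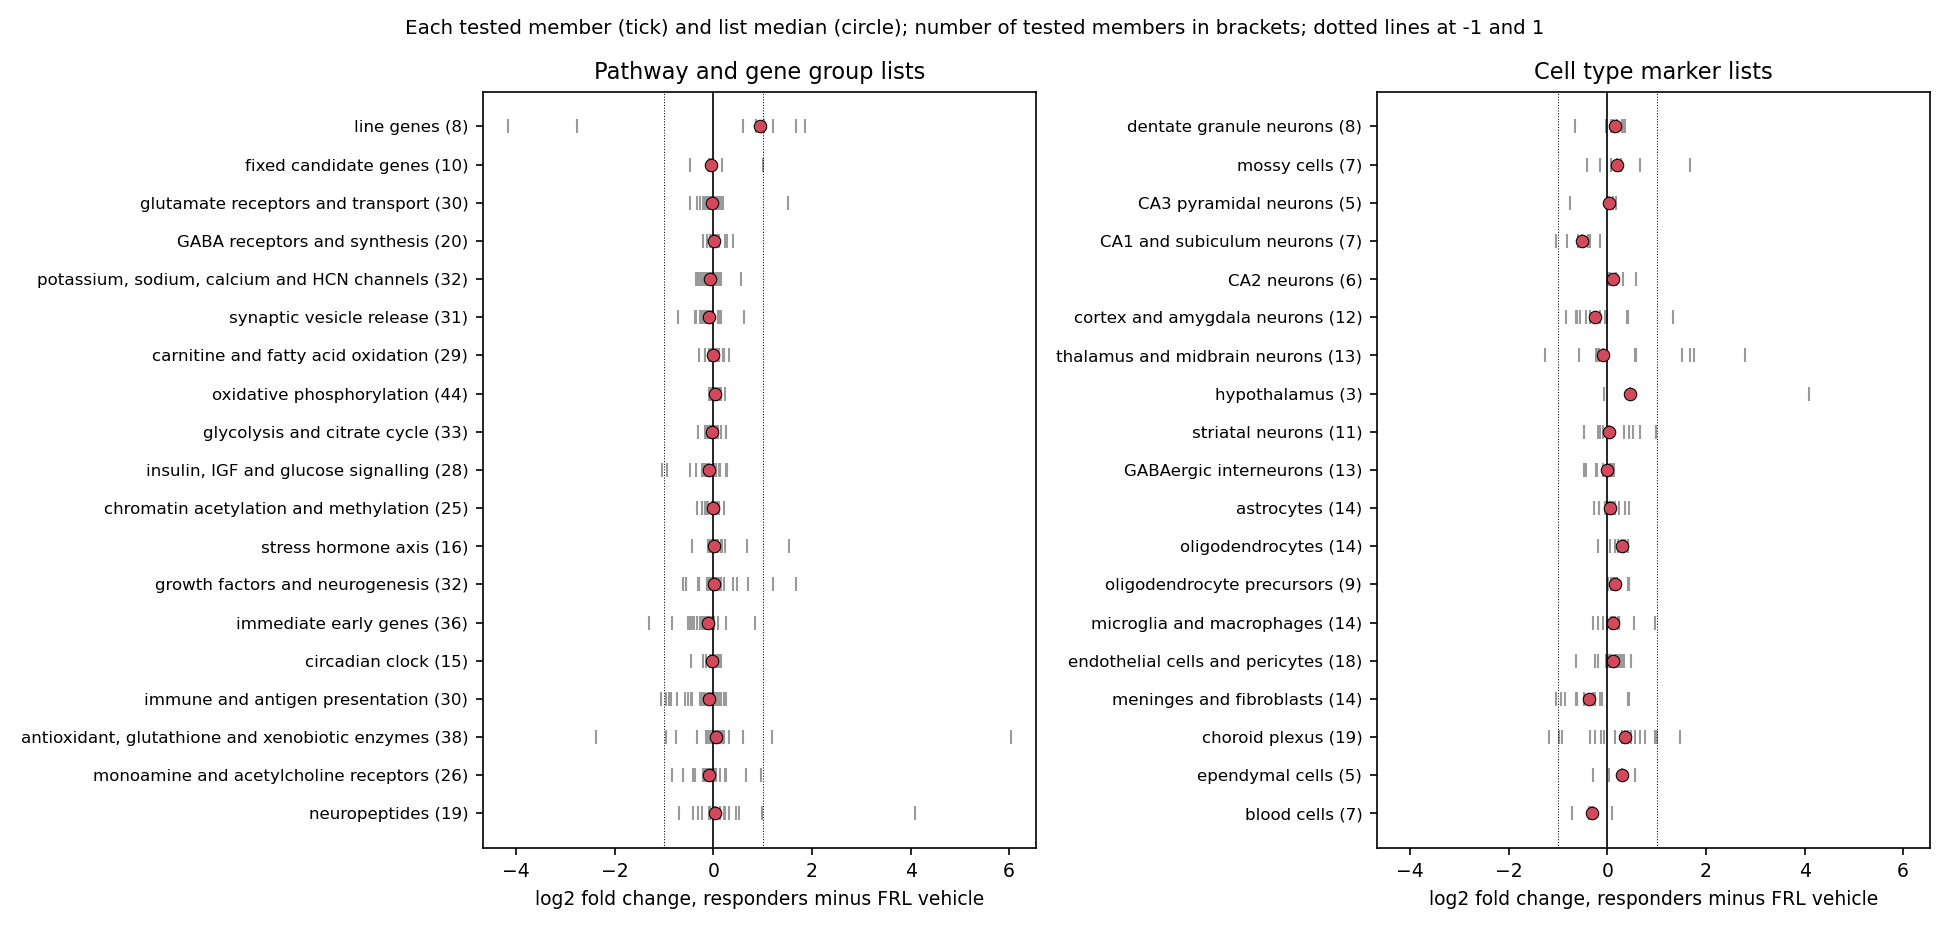
Log2 fold change, responders minus FRL vehicle, of each tested member of the lists (tick) with the list median (circle). The pathway list medians other than that of the line genes sit within -0.10 to 0.05, and the marker list medians spread from -0.52 to 0.46.

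Marker lists of cell types varied more, from a median of -0.52 to 0.46 over 19 lists, with no member that passed. The upper end is the hypothalamus list, which had 3 tested genes and a median of 0.095 without the 2 libraries low in Prox1. The defining markers Prox1, Mbp, Gfap, Cx3cr1 and Cldn5 were present in all 6 libraries. Dentate granule neuron markers had a median of 0.15 over 8 tested, which ran from -0.08 to 0.43 and turned below 0 in 2 of 18 alternative fits. Their mean level ran from 3.51 to 4.50 log2 CPM in responders and 3.54 to 4.44 in FRL vehicle, the low ends being responder 1 and FRL vehicle 2. Prox1 was at 9.19, 89.1 and 118 CPM against 105, 10.4 and 74.8 CPM, so each group held 1 library low in this marker. These low libraries differed in other lists. CA1 and subiculum markers had a mean of 5.05 log2 CPM in responder 1 and 6.08 in FRL vehicle 2, and thalamus and midbrain markers 3.91 and 2.77. Gfap, the astrocyte filament gene, was at 850 to 1110 CPM against 782 to 1200 CPM, and Cx3cr1, a microglial receptor, at 21.2 to 26.7 CPM against 21.1 to 24.5 CPM.

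Markers of CA1 and subiculum pyramidal neurons were below 0 in all 7 tested, with a median of -0.52. Their mean level was 5.05, 5.62 and 5.45 log2 CPM in responders and 5.56, 6.08 and 5.97 log2 CPM in FRL vehicle. The groups overlapped slightly, and without the 2 libraries low in Prox1 the median was -0.19, with 6 of 7 below 0. Mpped1, a marker of this list, stood at 156, 199 and 173 CPM against 215, 326 and 260 CPM (-0.60 ± 0.16; edgeR adjusted p = 0.648). Cortex and amygdala markers had a median of -0.25, with 9 of 12 below 0 (8 without those 2 libraries). Tbr1, a cortical transcription factor, was at 26.7 to 35.8 CPM in responders and 29.0 to 54.9 CPM in FRL vehicle.

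Oligodendrocyte markers were above 0 in 13 of 14 (14 without the 2 libraries low in Prox1), with a median of 0.30 that ran from -0.01 to 0.62 over the alternative fits. Mbp, the myelin basic protein gene, was at 2150, 4130 and 2590 CPM in responders and 1960, 2920 and 2240 CPM in FRL vehicle, and responder 2 was the high library. All 9 tested markers of oligodendrocyte precursors were above 0 (7 without the same 2 libraries), with a median of 0.16. Olig2, a transcription factor of that lineage, stood at 38.1, 42.8 and 33.3 CPM against 27.2, 27.1 and 31.2 CPM (0.42 ± 0.14; edgeR adjusted p = 0.9996).

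Microglia and macrophage markers had a median of 0.12 with 10 of 14 above 0, and 8 without the 2 libraries low in Prox1, where the median was 0.04. Tmem119, a microglial membrane protein, stood at 26.6, 21.4 and 20 CPM in responders and 11.6, 11.7 and 11.4 CPM in FRL vehicle, so that each responder library was well above the FRL libraries (0.97 ± 0.24; edgeR adjusted p = 0.598). Its non-responder level was 21.2 to 22.6 CPM and its FSL vehicle level 11.6 to 27.5 CPM. P2ry12, a microglial purine receptor, was at 25.1, 17.7 and 23.4 CPM against 17.6, 15.5 and 12.3 CPM (edgeR adjusted p = 0.9996).

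Markers of meninges and fibroblasts were below 0 in 12 of 14 (13 without the 2 libraries low in Prox1). Their median was -0.38 and ran from -1.37 to -0.10 over the alternative fits. The end at -0.10 is the fit with the mean of this same list as covariate, so nothing is read from it. None of the 14 had an interval within -1 and 1, where 83.5% of all genes did. Choroid plexus markers had a median of 0.36, which was -0.35 without the 2 libraries low in Prox1, and blood markers had a median of -0.32, which was -1.33 without them and ran up to 0.09. Thalamus and midbrain markers, with 6 of 13 above 0 and 7 below, had a median of -0.08. It turned above 0 in 5 of 18 alternative fits and reached 0.25. Those fits include that with the mean of this list as covariate. Single markers ran from -1.27 to 2.79, the highest being Tcf7l2. Calb2, listed here under both mossy cells and thalamus, was at 100, 16.4 and 17.4 CPM in responders and 14.5, 12.4 and 15.2 CPM in FRL vehicle. Pmch, a peptide of the lateral hypothalamus, was at 9.43, 2.85 and 0.405 CPM against 0.386, 0.267 and 0 CPM.

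**Figure D5:**
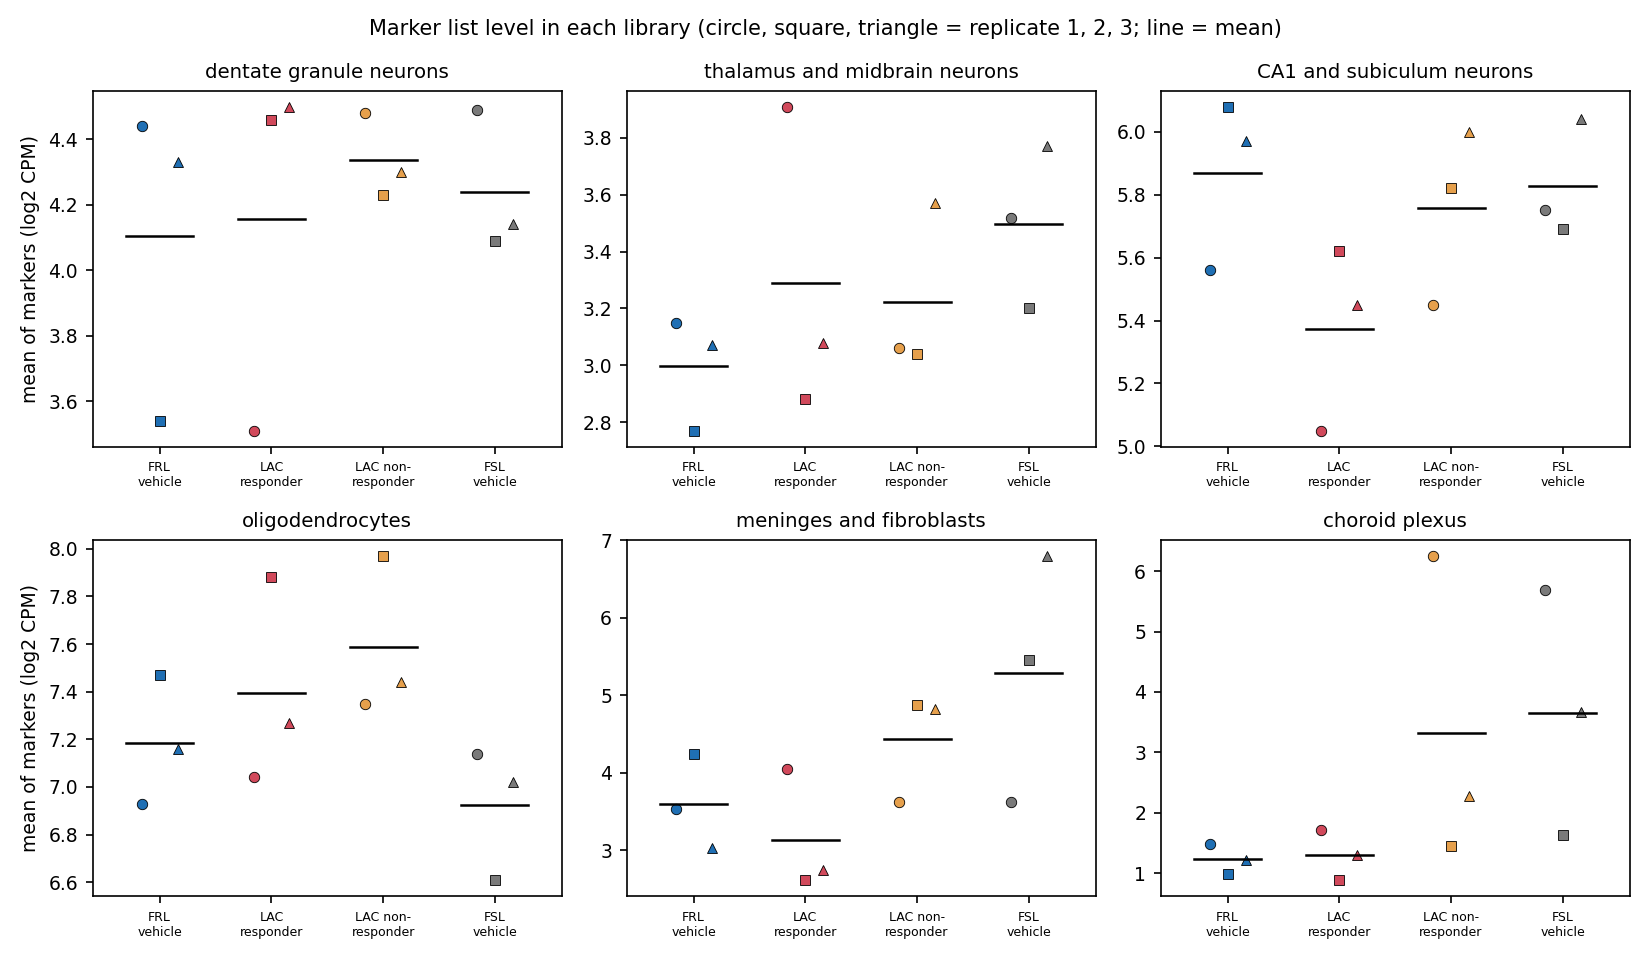
Mean log2 CPM of 6 marker lists in each library, with 1 point per library and a line at the mean of each group of 3 (the vertical axes do not start at 0). Responder 1 and FRL vehicle 2 are the low points of the dentate granule neuron panel, and responder 1, at 3.91, is the high point of the thalamus and midbrain panel.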

How the data were processed

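Whole-number read counts per gene symbol were deposited for 12 libraries of ventral dentate gyrus (17172 genes), not normalized. Per the labels' protocols, ribosomal-RNA-depleted stranded libraries were sequenced as 100 bp single reads. Build rn5, TopHat2 2.0.9, HTSeq 0.6.1, Trimmomatic 0.33, FastQC 0.11.3 and edgeR 3.12.0 are listed, without roles, per the submitters' processing notes. The sources used here give neither the annotation nor the strand setting, so overlapping and antisense genes cannot be separated. Reads assigned to no counted feature (47.7% to 52.7%), ambiguous reads (0.0756% to 0.106%) and reads aligned to several places (24.3% to 28.4%) stayed out of library sizes and tests.

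Tests were two-sided quasi-likelihood F tests by edgeR 4.0.16 (R 4.3.3). All 12 libraries were fitted together, robustly, with a mean for each of the 4 groups, after filterByExpr (11750 genes kept) and TMM scaling (factors 0.975 to 1.04). Benjamini-Hochberg adjusted p-values under 0.05 were called. Residual degrees of freedom were 8, and the common coefficient of biological variation was 0.178. CPM uses TMM-scaled library sizes, and log2 CPM a prior count of 2. SE is the absolute log2 fold change over the root of F, and intervals are 95%. P-values set the difference between groups against the spread within groups, pooled over all 12 libraries. The fit was tested on simulated counts of 11750 genes for this comparison. It recovered 46 of 50 genes set at -3, 45 of 50 at -2, 34 of 50 at -1 and 39 of 50 at 1 (log2). There were 8 false calls. The simulated spread depended on expression level only, and no simulated library differed in tissue makeup. These figures may therefore not hold for the real libraries.

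Named genes are all that passed, the next by p up to 20, the line genes, the candidates, fixed defining markers and the 2 list members of smallest p. Mgst1, P2ry12, Prkcd, Trmu, Srebf2, Zfp458, Fam173b, Chmp4c and Ang were named after their values were seen. Lists and members were chosen with earlier results of these data known. RefSeq names on GRCr8 matched 16720 of 17172 symbols. Alternatives used RLE and upper-quartile scaling, other filters and thresholds, DESeq2 1.42.0, limma-voom 3.58.1, covariates, a replicate block and left-out libraries.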

Additional observations from a re-analysis of the deposited data

How the results depend on the processing

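The 10 genes that passed between responders and FRL vehicle became 24 with DESeq2, 16 at an adjusted threshold of 0.1, 3 at 0.01, 4 with the thalamus list as covariate, 2 without both libraries low in granule neuron markers, and 1 in the 6 compared libraries. Leaving out 1 library gave 0 to 5. Other scalings and filters, the non-robust fit, the meningeal covariate and limma-voom gave 10 or 11. Smaller sets of libraries also leave fewer degrees of freedom, but the cause of these shifts was not tested. The 421 genes of unadjusted p under 0.05 became 247 without both low libraries, where genes with no overlap rose from 1211 to 3851, as fewer samples overlap less. With 1 library left out these were 2078 to 2851. The 4 line genes that passed became 1 in the 6 libraries, 2 without both low libraries and 0 to 3 with 1 library left out. The 6 list members that passed became 1, 2 and 0 to 4 in the same fits, and 3 at a threshold of 0.01.

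The replicate numbers are shared between groups only as numbers: deviations of same-numbered libraries correlated at -0.116, -0.0614 and 0.161, and none of the 3 responder libraries correlated best with its own number. With a replicate block in the 6 compared libraries 1 gene passed, as without it, with 1 line gene and 1 list member.

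Some named genes, most of them near 0, changed sign as log2 fold changes. With 1 library left out, Bdnf ran from -0.17 to 0.027, Nr3c1 from -0.11 to 0.075, Nr3c2 from -0.17 to 0.56, Insr from -0.17 to 0.0026, Crat from -0.095 to 0.022 and Cpt1a from -0.10 to 0.0029. Crh ran from -0.43 to 0.30, Fkbp5 from -0.20 to 0.14, Prox1 from -0.37 to 0.78, Tcf7l2 from -0.070 to 3.30, Mbp from -0.0038 to 0.50, Gfap from -0.22 to 0.075 and Lamp5 from -0.15 to 0.27. Without both low libraries Nr3c1 was 0.14, Crh 0.065, Tcf7l2 -0.21 and Lamp5 0.33. With the meningeal covariate Nr3c1 was 0.014, Fkbp5 0.046, Prox1 -0.17 and Lamp5 0.037, and with the thalamus covariate Bdnf was 0.037, Nr3c1 0.062 and Lamp5 0.099. With limma-voom Crh was 0.023 and Lamp5 0.021. Nr3c1 was 0.000564 without a filter, and Lamp5 0.025 with the replicate block.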
